A study of Homo sapiens with 14 samples.

Results

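The genes described here build the cell's recycling system: the autophagy machinery, the proton pump of the lysosome, the cathepsins, the lysosomal membrane proteins LAMP, and the vacuolar protein sorting (VPS) genes. They were taken by gene symbol alone, as every gene of either deposited comparison whose symbol starts with ATG and a digit, ATP6V, LAMP and a digit, GABARAP, MAP1LC3, WIPI and a digit or VPS and a digit, or is CTS and 1 letter. This gave 87 of the 12202 genes listed. By role they were 23 autophagy genes, 16 proton pump genes, 11 cathepsins, 3 LAMP genes, 32 VPS genes and 2 antisense transcripts, ATP6V0E2-AS1 and VPS9D1-AS1, which share only a name with the rest. All 87 were listed in the comparison of the enhancer deletion and 84 in that of the siRNA, where CTSH, GABARAP and LAMP3 were not listed.

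The cells were teloHAEC, an immortalised line of human aortic endothelial cells, so every library came from 1 line. In the siRNA arm, Silencer Select siRNA against CALCRL, which encodes the calcitonin receptor-like receptor, was compared with scrambled siRNA (4 libraries each). Both were given with Lipofectamine RNAiMAX by reverse transfection, and RNA was taken 24 hours later. In the deletion arm, HiFi Cas9 with guides on either side of a CALCRL enhancer was compared with Cas9 and a guide against HPRT (3 libraries each). Both complexes went in with the Neon electroporation system and RNA was taken 2 days later, from the treated cells as collected. The controls of this arm were therefore given Cas9 too, aimed at another gene. The arms shared no libraries. They differed in delivery, time and control, and these cannot be told apart as sources of a difference between them.

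In macroautophagy, the ATG proteins build a double membrane around a cargo, LC3 and GABARAP proteins are joined to its lipid, and the closed autophagosome fuses with a lysosome. The vacuolar ATPase pumps protons into the lysosome through a membrane sector (V0) driven by a cytosolic sector that splits ATP (V1), and the acid activates the cathepsins, most of which are proteases. VPS proteins direct traffic to and from this compartment: HOPS and CORVET tether membranes before fusion, ESCRT sorts ubiquitinated receptors into the lysosome, and retromer and GARP return receptors to the surface and the Golgi. Receptors coupled to G proteins, the family of the CALCRL product, can be broken down by this route.

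Only the authors' comparisons were used, without values per library, so a change is given here as the mean level of each group that the deposited mean and fold change imply, followed by the deposited log2 fold change and its standard error (SE). Levels are normalised read counts, not per length, from libraries that read only the 3' end of transcripts. Between genes they were used to rank by read count and to sum markers, and were not compared otherwise. A gene is called changed at an adjusted p-value under 0.05 in the authors' DESeq2 Wald test, adjusted over the whole table. The labels do not say that replicates came from separate cultures, so p-values measure the spread between these libraries, which may be technical. CALCRL itself was, in the authors' deposited tables, at -1.56 (SE 0.17, adjusted p = 1.90e-17) under its siRNA and at -1.47 (SE 0.43, adjusted p = 0.00962) after the deletion. The median SE was 0.16 over the 84 genes of the siRNA comparison and 0.37 over the 87 of the deletion, so the latter was the less precise. Of 10 endothelial marker genes 9 were listed, while 0 of 5 epithelial, 1 of 8 leukocyte (CD68) and 1 of 9 smooth muscle and fibroblast markers (ACTA2) were. The summed mean level of the endothelial markers was 7344 normalised counts in the siRNA libraries and 6785 in those of the deletion. That of CD68 was 41.2 and 12.3, and that of ACTA2 was 225 and 182. After the deletion 2 of the 9 endothelial markers were called in the authors' deposited table, CDH5 (-1.44, SE 0.35) and KDR (-1.05, SE 0.31), both lower, while 5 of the 9 were above 0 and their median was 0.05. Under the siRNA 1 of the 9 was called, EGFL7 (-0.46, SE 0.11, in the authors' deposited table). Their part in the results was not tested. In a culture, fewer cells of a type and less RNA per cell cannot be told apart.

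Under the siRNA hardly any of these genes moved. Of 84 genes, 2 were called in the authors' deposited table (2.38%), where 3.46% of all tested genes were: ATP6V1H, which was lower (2.42% of all genes were called lower), and VPS25, which was higher (1.05% called higher). The median log2 fold change of the 84 genes was 0.02, against 0.00 over all 11261 genes, and they ranged from -0.53 to 0.55. After the enhancer deletion, 19 of 87 were called in the authors' deposited table (21.8%), where 15.8% of all tested genes were. Of these, 11 were higher (7.4% of all genes were) and 8 were lower (8.44% of all genes were). Their median was 0.12, against 0.00 over all 11830 genes tested. The calls went in both directions within the autophagy, proton pump, cathepsin and sorting genes. With a Student t reference in place of the normal, or with the statistics divided by their robust SD, 0 of the 87 were called in either arm. At an unadjusted p under 0.05 these gave 5 and 7 genes in the siRNA arm, against 8 by DESeq2, and 17 and 5 in the deletion arm, against 31.

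Among the proton pump genes, ATP6V1H was the 1 gene called lower in both arms. It encodes the regulatory H subunit of V1, which is needed for the pump to run. Its implied level was 212 normalised counts with scrambled siRNA and 151 with CALCRL siRNA, or 71.3% of the control (95% interval 59.2% to 85.8%). This was a log2 fold change, in the authors' deposited table, of -0.49 (SE 0.14, adjusted p = 0.0144). In the deletion arm it was at 262 normalised counts with the control guide and 73.6 after the deletion, 28.1% of the control (14.4% to 54.8%). The authors' deposited table gave -1.83 (SE 0.49, adjusted p = 0.00465). The effects in the arms differed by -1.34 (SE 0.51), which did not pass the test of the difference (adjusted p = 0.0568).

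Also in V1, ATP6V1B2, the B subunit next to the ATP-splitting site, fell after the deletion from an implied 534 to 193 normalised counts. The authors' deposited table gave -1.47 (SE 0.45, adjusted p = 0.0152) for it there and -0.03 (SE 0.17) under the siRNA, where its levels were 622 and 608. ATP6V1F, a small subunit of the central stalk, went the other way. It rose from 604 to 1148 normalised counts, a log2 fold change of 0.93 (SE 0.29, adjusted p = 0.0169) in the authors' deposited table, and stood at 0.24 (SE 0.11, adjusted p = 0.302) under the siRNA. The remaining 6 V1 genes were not called in either arm. In the authors' deposited tables ATP6V1G1, a subunit of the peripheral stalk, was at -0.01 (SE 0.08) under the siRNA and -0.38 (SE 0.30) after the deletion. Of the 9 V1 genes, 3 were called after the deletion, where 15.8% of all genes were, 1 higher and 2 lower, with a median of -0.38. With the trend of log2 fold change on the GC content of transcript ends over all genes (the GC trend) removed, the median was -0.21 and ATP6V1F, at 0.52 (adjusted p = 0.246), was no longer called.

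In the V0 sector 0 of 7 genes were called in either arm by DESeq2, with 1 at an unadjusted p under 0.05 under the siRNA and 3 after the deletion. ATP6V0A2, an isoform of the large a subunit, was the nearest under the siRNA, at -0.49 (SE 0.16, adjusted p = 0.0571) in the authors' deposited table, with implied levels of 93.0 and 66.2 normalised counts. The proteolipid subunit gene ATP6V0B was at 0.11 (SE 0.14) under the siRNA and 0.58 (SE 0.32) after the deletion, as the authors' deposited tables give it. ATP6V0E1, which encodes the small e subunit, was at -0.08 (SE 0.08) and 0.50 (SE 0.20, adjusted p = 0.0675) in the authors' deposited tables.

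ATP6V1H and ATP6V0A2, the lowest of the pump genes under the siRNA, both carry GTAACAA in the 3' UTR. An earlier look at these data found this 7-base word in genes lower under the siRNA, so its link to low values is not independent evidence. It was searched on the transcript strand, in the longest annotated 3' UTR of each gene. In all, 8 of the 82 genes with a 3' UTR that were tested in the siRNA arm carried it: ATG2B, ATG7, ATG14, ATP6V0A2, ATP6V1H (at 2 places), LAMP1, VPS13A and VPS35. The sites of 6 of them are shown on the transcript's strand, 29 bases each, with the word in capitals and its GRCh38 position, because every gene that carried it had a siRNA value below 0.

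ATP6V0A2, chr12:123759179-123759185, plus: tgtatatttttGTAACAAaatataaatga
ATG7, chr3:11557436-11557442, plus: cctgggagcttGTAACAAagcagacaggg
ATG14, chr14:55368076-55368082, minus: aaaaatcctatGTAACAActaccaaaaga
LAMP1, chr13:113323396-113323402, plus: atgcattgcctGTAACAAtgtaataaaaa
VPS13A, chr9:77420730-77420736, plus: atgaagtccttGTAACAAgaaaccctgtg
VPS35, chr16:46660645-46660651, minus: aaaatgatgcgGTAACAAttcaggtttta

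All 8 genes with the word had a log2 fold change below 0 in the authors' deposited table for the siRNA, from -0.49 to -0.01 with a median of -0.13. The 74 genes without it had a median of 0.05, with 45 above 0 and 29 below. Over the whole siRNA table the medians were -0.12 for the 1135 genes with the word and 0.01 for the 9504 without. The median of the 8 thus stood near that of such genes in general. Below 0 were 778 of the 1135 genes and 4483 of the 9504. In the deletion arm the 8 had a median of 0.01, with 4 above 0 and 4 below.

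None of the autophagy genes proper passed the test under the siRNA. By DESeq2 0 of 22 were called in the authors' deposited table, against 3.46% of all genes, with 1 at an unadjusted p under 0.05, and 16 of the 22 were above 0. That was ATG4A, a protease that trims LC3 and GABARAP proteins, at 0.37 (SE 0.14, adjusted p = 0.155 in the authors' deposited table). After the deletion 4 of 23 were called (17.4%, against 15.8% of all genes), 2 higher and 2 lower, and with the GC trend removed, ATG2B alone of the 4 was. The lipid transfer proteins ATG2A and ATG2B, which are close relatives and fill the growing membrane with lipid, moved in opposite directions. ATG2A rose from an implied 50.3 normalised counts with the control guide to 156 after the deletion, at 1.63 (SE 0.44, adjusted p = 0.00496) in the authors' deposited table. ATG2B fell from 91.8 to 38.3 normalised counts, at -1.26 (SE 0.45, adjusted p = 0.0375) in the authors' deposited table. Under the siRNA the pair stood at 0.19 (SE 0.18) and -0.05 (SE 0.27) in the authors' deposited table.

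ATG4B, the main LC3 protease of the family, rose from 158 to 330 normalised counts after the deletion, at 1.07 (SE 0.29, adjusted p = 0.00542) in the authors' deposited table. Its relative ATG4A was at -0.55 (SE 0.27, adjusted p = 0.156) there, and ATG4C and ATG4D were at 0.12 (SE 0.37) and 0.28 (SE 0.73), all by the authors' deposited table. GABARAPL2, one of the proteins that are joined to the membrane lipid, fell from 626 to 351 normalised counts, 56.1% of the control (38.9% to 80.9%). The authors' deposited table gave it -0.83 (SE 0.27, adjusted p = 0.0206) after the deletion and 0.21 (SE 0.13, adjusted p = 0.619) under the siRNA. MAP1LC3B, the LC3 gene most used as an autophagosome marker, had implied levels of 696 and 374 normalised counts in the deletion arm. It was not called, at -0.90 (SE 0.41, adjusted p = 0.114) in the authors' deposited table, nor under the siRNA (-0.04, SE 0.12). ATG3, the enzyme that transfers LC3 to lipid, was at -0.52 (SE 0.25, adjusted p = 0.143) after the deletion, and WIPI2, a reader of phosphoinositides on the new membrane, stood at -0.43 (SE 0.29) by the authors' deposited table. Under the siRNA they were at -0.09 and 0.15 in the authors' deposited table. MAP1LC3B and GABARAPL1 have near-identical copies in the genome, and GABARAP, with a mean of only 6.13 normalised counts, shares its 3' end with another gene, so their counts are uncertain.

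**Figure D1:**
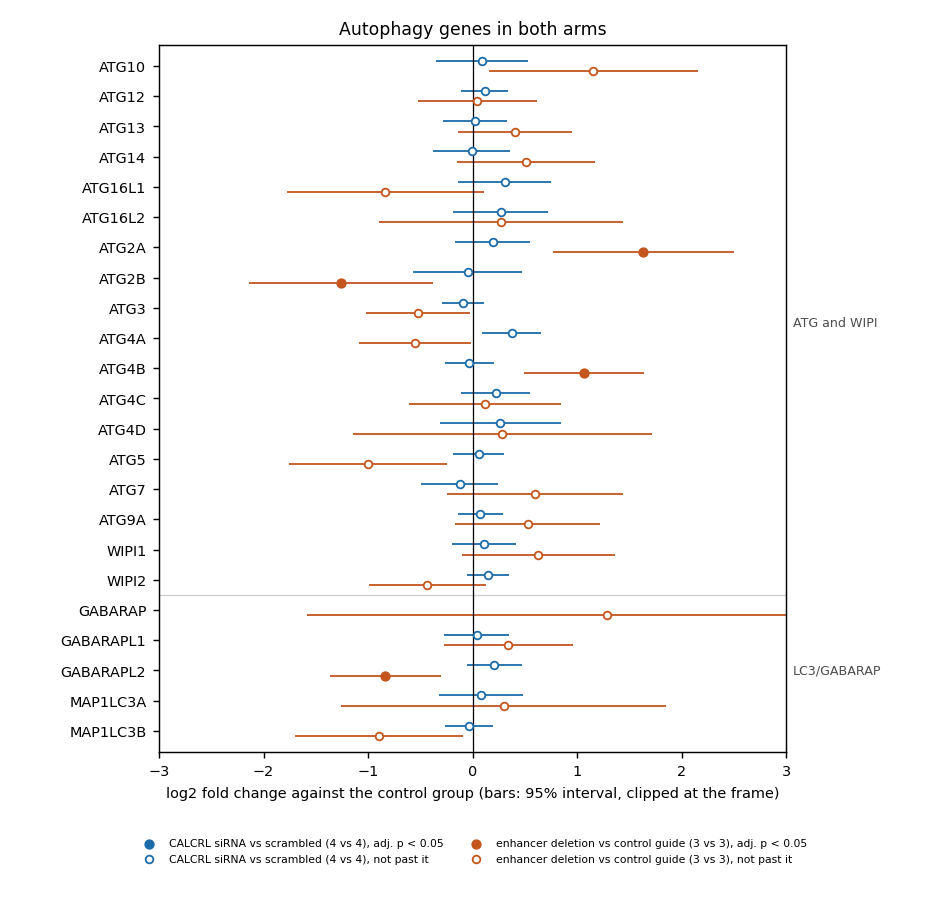
Log2 fold change of the 23 autophagy genes (horizontal axis, with 95% intervals) under CALCRL siRNA (blue) and after the enhancer deletion (orange), filled where the adjusted p was under 0.05. The siRNA points lie close to 0 with no call, while ATG2A and ATG4B lie above 0 and ATG2B and GABARAPL2 below it after the deletion.

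The cathepsins held the gene with the lowest adjusted p of the 87. CTSL, an abundant cysteine protease, fell from an implied 1387 normalised counts with the control guide to 304 after the deletion, 21.9% of the control (14.0% to 34.2%). The authors' deposited table gave it a log2 fold change of -2.19 (SE 0.33, adjusted p = 3.51e-08). Under the siRNA it was at -0.05 (SE 0.22, adjusted p = 0.989) by the authors' deposited table, with 608 and 588 normalised counts. The siRNA SE of CTSL was 2.05 times the SE usual at its mean count, the only one of the 84 over 2 times. Of the 214 genes with such a siRNA SE, 206 were lower after the deletion in the authors' deposited table, with a median of -2.01. Whether what spreads these genes between siRNA libraries bears on the fall of CTSL was not tested. CTSL also has pseudogene copies that may share its reads.

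CTSC, which activates the serine proteases of immune cells, fell from 877 to 524 normalised counts, at -0.74 (SE 0.25, adjusted p = 0.0249) in the authors' deposited table. CTSA, a carboxypeptidase that also protects other lysosomal enzymes, rose from 285 to 552, at 0.95 (SE 0.35, adjusted p = 0.0462) by the authors' deposited table. CTSD, the main aspartic protease of the lysosome, rose from 337 to 651, also at 0.95 (SE 0.35, adjusted p = 0.0464) in the authors' deposited table. The most abundant cathepsin by read count, CTSB, was at 0.21 (SE 0.16, adjusted p = 0.385) after the deletion and -0.04 (SE 0.06) under the siRNA in the authors' deposited tables, and CTSZ, another cysteine cathepsin, was at 0.83 (SE 0.49) and -0.18 (SE 0.19). In all, 4 of 11 cathepsins were called after the deletion, 2 higher and 2 lower (15.8% of all genes were called), of which CTSL alone was with the GC trend removed. Under the siRNA 0 of 10 were called by DESeq2, with 1 at an unadjusted p under 0.05. CTSO, with an implied 8.56 normalised counts in the control group, was at or under 3 counts after the deletion, so no fold is given. The same holds for LAMP3, at 10.4 in the control group.

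LAMP1 and LAMP2, the 2 abundant glycoproteins that line the lysosome, did not pass the test in either arm. LAMP1 had implied levels of 1370 and 1326 normalised counts in the deletion arm, and the authors' deposited table gave it -0.05 (SE 0.26). LAMP2 was at 760 and 466 normalised counts, or -0.70 (SE 0.28, adjusted p = 0.0681) in the authors' deposited table. Under the siRNA they were at -0.04 (SE 0.11) and 0.02 (SE 0.11) in the authors' deposited table.

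**Figure D2:**
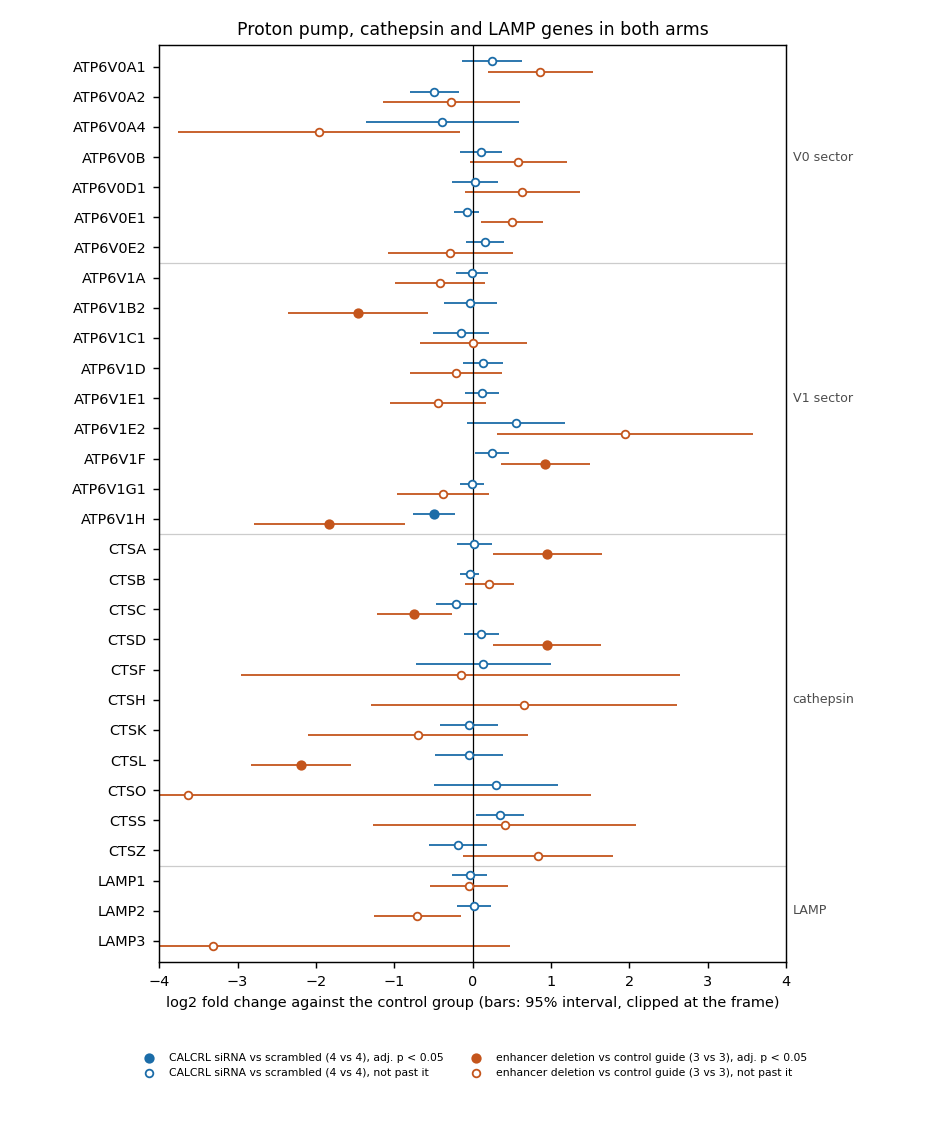
Log2 fold change of the 16 proton pump, 11 cathepsin and 3 LAMP genes (horizontal axis, with 95% intervals, cut at the frame) under CALCRL siRNA (blue) and after the enhancer deletion (orange), filled where the adjusted p was under 0.05. ATP6V1H is the 1 gene filled in both colours, and CTSL at -2.19 is the lowest filled point.

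TFEB and its relatives switch on many of these genes through the CLEAR element, whose core TCACGTG contains the E-box CACGTG. Both words were searched on both strands in RefSeq promoters, from 250 bases before to 50 after the start (GRCh38.p14), of the 63 genes with an entry. TCACGTG was in 14 of them (22.2%), against 7.35% of the promoters of genes listed in either arm and 4.49% of all promoters in the reference. CACGTG, which every TCACGTG holds, was in 23.8%, 12.7% and 8.77%. The upstream 200 bases of 4 promoters are shown 5' to 3' on the gene's strand, for the 3 such genes called after the deletion and for LAMP1, which has the word most often. Capitals mark CACGTG with a T before it or an A after it, where present.

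CTSA, chr20:45891135-45891334, plus: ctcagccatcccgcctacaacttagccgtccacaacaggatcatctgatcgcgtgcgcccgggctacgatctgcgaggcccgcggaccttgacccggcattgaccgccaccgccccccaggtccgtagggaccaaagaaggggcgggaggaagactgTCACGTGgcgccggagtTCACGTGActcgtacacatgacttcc
CTSD, chr11:1763928-1764127, minus: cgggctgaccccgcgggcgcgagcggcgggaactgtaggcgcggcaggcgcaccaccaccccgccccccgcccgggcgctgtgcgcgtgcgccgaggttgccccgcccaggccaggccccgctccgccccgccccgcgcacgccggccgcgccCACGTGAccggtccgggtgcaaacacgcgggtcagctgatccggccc
LAMP1, chr13:113297039-113297238, plus: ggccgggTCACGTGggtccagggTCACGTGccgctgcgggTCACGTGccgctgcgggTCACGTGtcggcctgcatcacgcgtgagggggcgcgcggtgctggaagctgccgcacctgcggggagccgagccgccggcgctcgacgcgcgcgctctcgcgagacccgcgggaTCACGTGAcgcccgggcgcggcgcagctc
VPS11, chr11:119067618-119067817, plus: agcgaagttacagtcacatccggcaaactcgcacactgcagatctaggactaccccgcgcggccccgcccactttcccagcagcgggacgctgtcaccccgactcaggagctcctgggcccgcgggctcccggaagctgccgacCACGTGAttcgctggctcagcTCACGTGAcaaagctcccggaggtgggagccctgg

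The 14 genes with TCACGTG in the promoter did not move together. After the deletion 3 of them (21.4%) were called, CTSA and CTSD higher and VPS11 lower, against 12 of the 49 genes whose promoter lacked the word (24.5%) and 15.8% of all genes, and 7 had a log2 fold change above 0 and 7 below. Their median in the authors' deposited table was 0.10, against 0.15 for those 49. With the GC trend removed the medians were -0.15 and 0.18, and CTSA and CTSD were no longer called. Under the siRNA 0 of the 14 were called by DESeq2, 0 of them at an unadjusted p under 0.05, with a median of 0.03. LAMP1, whose stretch shown here holds CACGTG 5 times and whose whole window 6 times, was not called in either arm, and a match is a description and not a bound site.

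After the deletion 7 of the 32 VPS genes were called (21.9%, against 15.8% of all genes). Of these 5 were higher and 2 lower, where 7.4% and 8.44% of all genes were. Under the siRNA 1 of 32 was called (3.12%, against 3.46% of all genes). Among the 8 genes grouped here as HOPS and CORVET, VPS11 and VPS18, both in the core that the tethers share, moved apart. VPS11 fell from an implied 108 normalised counts to 29.3 after the deletion, at -1.87 (SE 0.55, adjusted p = 0.0094) in the authors' deposited table. VPS18 rose from 53.6 to 150, at 1.480 (SE 0.45, adjusted p = 0.0142) in the authors' deposited table, but was not called with the GC trend removed (adjusted p = 0.119). The remaining core genes VPS16 and VPS33A were at 0.24 (SE 0.37) and 0.43 (SE 0.43), and VPS41, which is specific to HOPS, at 0.53 (SE 0.29), with no call in the authors' deposited table. Under the siRNA VPS11, VPS18, VPS16 and VPS41 stood at 0.12, 0.05, -0.02 and 0.22 in the authors' deposited table, with SE from 0.13 to 0.22. VPS33B stood farthest from 0 of the 8, at -0.53 (SE 0.21, adjusted p = 0.172) by the authors' deposited table, the 1 gene of the group with an unadjusted p under 0.05, and VPS33A was at -0.17 (SE 0.15). The 3' end of VPS33B shares 117 bases with another gene on the same strand, so its counts are uncertain.

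Of the 9 ESCRT genes, 3 were called higher after the deletion and 0 lower, where 7.4% of all genes were called higher. With the GC trend removed VPS4A alone of the 3 was called, while VPS25 was at 0.45 (adjusted p = 0.260) and VPS28 at 0.78 (adjusted p = 0.186). VPS25, a subunit of ESCRT-II, was called higher in both arms as deposited and in neither with the GC trend removed. Its implied level was 162 normalised counts with scrambled siRNA and 215 with CALCRL siRNA, at 0.41 (SE 0.13, adjusted p = 0.0439) in the authors' deposited table. In the deletion arm it was at 185 and 334, or 0.85 (SE 0.26, adjusted p = 0.0133) by the authors' deposited table. The difference between the arms was 0.45 (SE 0.29, adjusted p = 0.303), with a 95% interval from -0.12 to 1.01. VPS28, a subunit of ESCRT-I, rose from 605 to 1660 normalised counts after the deletion, at 1.46 (SE 0.40, adjusted p = 0.0051) in the authors' deposited table. VPS4A, an ATPase that takes the ESCRT filament apart, rose from 283 to 662, at 1.23 (SE 0.29, adjusted p = 0.000974) in the authors' deposited table. Its close relative VPS4B was at 0.28 (SE 0.23, adjusted p = 0.428) after the deletion by the authors' deposited table. Under the siRNA VPS28, VPS4A and VPS4B were at 0.18 (SE 0.11), 0.02 (SE 0.16) and 0.22 (SE 0.11) in the authors' deposited table, none called. The 3' end of VPS4A overlaps that of COG8 on the other strand by 27 bases, and whether reads were counted by strand is not given in the sources used here.

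The retromer, whose core is VPS26, VPS29 and VPS35, gave 0 calls of 4 genes in either arm by DESeq2, with 0 at an unadjusted p under 0.05 in both. In the authors' deposited tables VPS35 was at -0.13 (SE 0.09) under the siRNA and 0.37 (SE 0.24) after the deletion, and VPS29 at 0.13 (SE 0.14) and 0.12 (SE 0.27). In the GARP complex VPS51 rose and VPS54 fell after the deletion. VPS51 went from 246 to 536 normalised counts, at 1.13 (SE 0.36, adjusted p = 0.0204), and VPS54 from 106 to 40.3, at -1.40 (SE 0.49, adjusted p = 0.0343) in the authors' deposited table, and neither was called with the GC trend removed (adjusted p = 0.417 and 0.0689). VPS52 and VPS53, their partners, were at -1.20 (SE 0.54, adjusted p = 0.109) and 0.39 (SE 0.35), with no call in the authors' deposited table. Under the siRNA VPS51 was at 0.29 (SE 0.17), and the other GARP genes were from -0.09 to -0.02 in the authors' deposited table. The 3' end of VPS51 overlaps an antisense transcript over 348 bases, that of VPS52 overlaps another over 433 bases, and that of CTSA overlaps PLTP on the other strand over 200 bases.

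The other 7 VPS genes were not called in either arm by DESeq2, with 0 at an unadjusted p under 0.05 under the siRNA and 1 after the deletion. That was VPS72, which despite its name encodes a chaperone of histone H2A.Z, at -1.22 (SE 0.53, adjusted p = 0.0957) in the authors' deposited table, and -0.06 (SE 0.12) under the siRNA. VPS13C, a lipid transfer protein, was at -0.19 (SE 0.28) after the deletion and -0.15 (SE 0.16) under the siRNA by the authors' deposited tables. All 7 had a siRNA log2 fold change below 0, from -0.53 to -0.06. Of the antisense transcripts, VPS9D1-AS1 rose from an implied 20.4 to 78.8 normalised counts after the deletion, at 1.95 (SE 0.55, adjusted p = 0.00684) in the authors' deposited table. VPS9D1, on the other strand, was at -0.07 (SE 0.76) by the authors' deposited table. The last 500 bases of neither shared exon bases with another gene, though whether reads were counted by strand is not given. ATP6V0E2-AS1, at an implied 2.34 normalised counts in the control group, is given no fold.

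**Figure D3:**
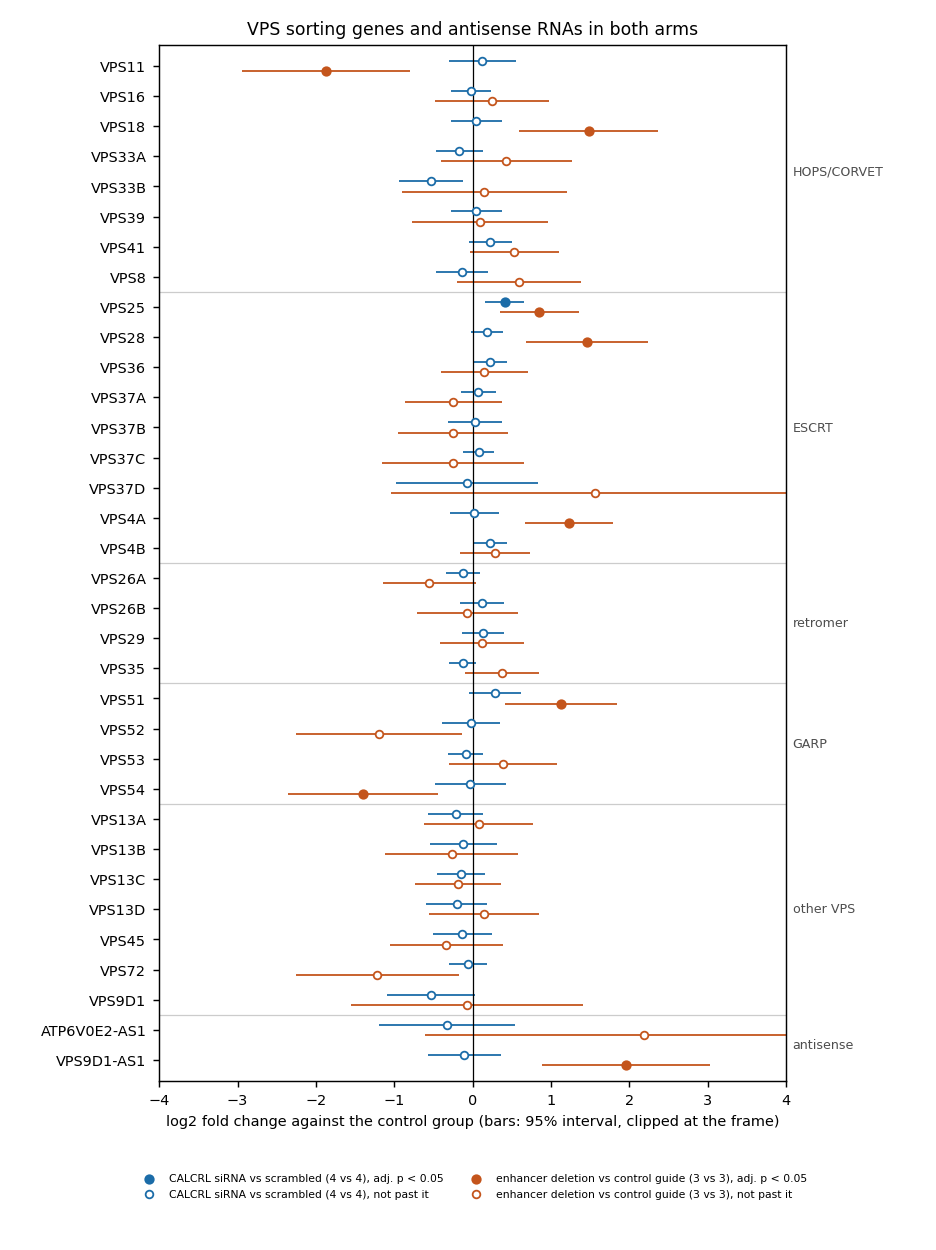
Log2 fold change of the 32 VPS genes and 2 antisense transcripts (horizontal axis, with 95% intervals, cut at the frame) under CALCRL siRNA (blue) and after the enhancer deletion (orange), filled where the adjusted p was under 0.05. VPS25 is filled above 0 in both colours, while VPS11 and VPS18 lie on opposite sides of 0 after the deletion.

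The difference between the effects of the arms was tested for each gene in both tables. It passed in 11 of the 84 genes (13.1%), where 13.7% of all 10891 genes did, with 6 higher in the deletion arm (6.49% of all genes) and 5 lower (7.22%). The widest gap that passed was that of CTSL, -2.14 (SE 0.40, adjusted p = 3.01e-05), among the 5 lower, which also held VPS11 (-2.00, SE 0.59), ATP6V1B2 (-1.43, SE 0.48), GABARAPL2 (-1.04, SE 0.30) and ATG4A (-0.92, SE 0.31). ATG4A was called in neither arm by itself. On the other side were VPS9D1-AS1 (2.06, SE 0.60), ATG2A (1.44, SE 0.48), VPS18 (1.43, SE 0.48), VPS28 (1.27, SE 0.41), VPS4A (1.20, SE 0.33) and ATG4B (1.10, SE 0.31). With a Student t reference, or with the statistics divided by their robust SD, 0 of these differences passed, with 11 and 2 at an unadjusted p under 0.05. The 2 genes called under the siRNA, ATP6V1H and VPS25, were both called in the same direction after the deletion. Of all 390 genes called under the siRNA in the authors' deposited tables, 47 were also called after the deletion, 24 of them in the same direction. With the GC trend removed, VPS25 was called in neither arm.

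**Figure D4:**
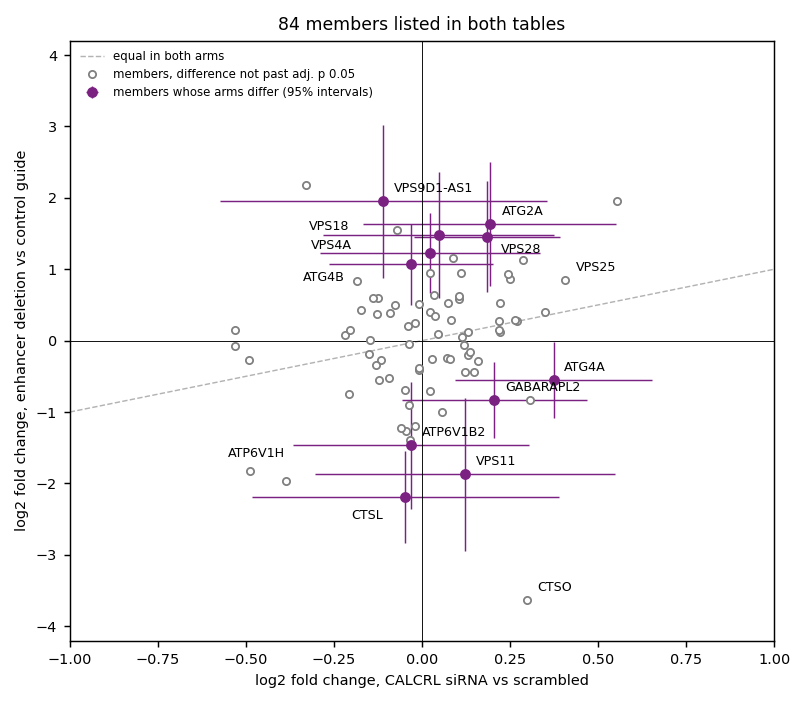
Log2 fold change of the 84 genes listed in both tables, under CALCRL siRNA (horizontal axis) and after the enhancer deletion (vertical axis, on a wider scale), with the dashed line where both are equal. Purple points with 95% intervals are the 11 genes whose arms differed at an adjusted p under 0.05, from CTSL at the bottom to VPS9D1-AS1 at the top.

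The direction of the deletion calls went with base composition. GC content here is that of the final 500 transcript bases, the part a 3' library reads. The 11 genes called higher had a GC content from 42.8% to 64.4%, with VPS4A the lowest and the next at 53.6%. The 8 called lower had 31.8% to 51.6%, and only VPS11 was over 50%. Over all genes with a GC value, 509 were called higher and 147 lower at 50% or over. From 40% to 50% these were 238 and 280, and under 40% they were 122 and 558. Across the 87 genes log2 fold change after the deletion and GC content had a Spearman correlation of 0.47, a description over genes of the same libraries, against 0.30 over all genes with a GC value. The 29 genes under 40% GC had a median in the authors' deposited table of -0.27 (all genes -0.20), the 31 from 40% to 50% a median of 0.12 (-0.02), and the 27 at 50% or over a median of 0.65 (0.43). With the trend over all genes removed, 7 of the 87 were called, 2 higher and 5 lower, where 11.7% of all genes were called. The median of the 87 went from 0.12 to -0.04, and that of all genes from 0.00 to -0.06. Of the 19, 6 remained: ATG2B (-1.38), ATP6V1B2 (-1.43), ATP6V1H (-2.06), CTSL (-2.18), VPS11 (-2.19) and VPS4A (1.21). ATP6V0E1 (0.58) was added, while CTSD went from 0.95 to 0.23, CTSA from 0.95 to 0.44, ATG2A from 1.63 to 0.93 and VPS28 from 1.46 to 0.78, none of them past the threshold. In the siRNA arm, ATP6V1H was then the 1 gene called (-0.50), and VPS25 was at 0.39 with an adjusted p of 0.0588. The part of GC content in the calls was not tested.

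**Figure D5:**
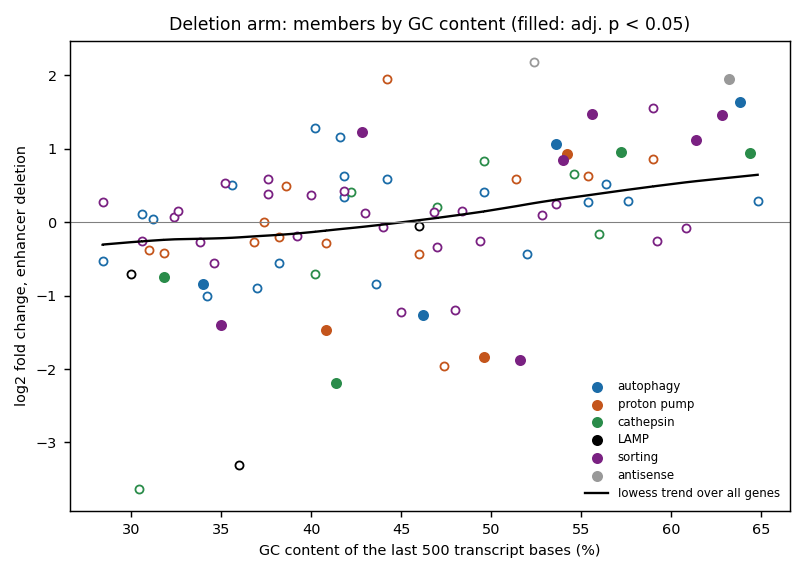
Log2 fold change after the enhancer deletion (vertical axis) against the GC content of the last 500 transcript bases (horizontal axis, percent) for the 87 genes, coloured by role and filled where the adjusted p was under 0.05. The line is the lowess trend over all genes, and 10 of the 11 genes called higher lie right of 50% GC.

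The wider pathway was read from 121 listed genes of the same system outside the symbol rule. Under the siRNA 4 of 119 were called in the authors' deposited table for it (3.36%), near the 3.46% of all genes. IST1, an ESCRT regulator, was at -0.74 (SE 0.13, adjusted p = 7.68e-06), the cargo receptor gene NBR1 at -0.36 (SE 0.10), NRBF2, a subunit of the autophagy PI3-kinase, at 0.54 (SE 0.13) and the galactosidase GLB1 at 0.45 (SE 0.12), by the authors' deposited table. After the deletion 18 of 120 were called (15.0%), near the 15.8% of all genes, with 4 higher and 14 lower. Of all genes 7.4% were called higher and 8.44% lower. Of the lysosomal enzymes, transporters and regulators 8 of 59 were called, 1 higher and 7 lower. They included, in the authors' deposited table, NPC1, the cholesterol exporter (-1.62, SE 0.40), GNPTG, which helps to tag enzymes for the lysosome (-2.24, SE 0.59), and the sulfatase SGSH (-2.18, SE 0.65). CSTB, an inhibitor of cysteine cathepsins such as CTSL, was also lower, at -2.26 (SE 0.36) by the authors' deposited table. The other such inhibitor listed, CST3, was the 1 called higher, at 1.05 (SE 0.34) by the authors' deposited table. Of the other sorting genes 6 of 33 were called, 1 higher and 5 lower, among them the ESCRT partners CHMP5 (-2.93, SE 0.43), PDCD6IP (-1.32, SE 0.31), and the retromer partner SNX1 (-1.27, SE 0.36) in the authors' deposited table. The ESCRT partners SNF8 (-0.96, SE 0.35) and VTA1 (-0.86, SE 0.28) were also lower there and CHMP6 (1.35, SE 0.46) was higher, by the authors' deposited table. Of the other autophagy genes 4 of 28 were called, 2 higher and 2 lower, with TMEM41B, which moves lipids at the early membrane, at -2.77 (SE 0.55) and ZFYVE1 at 1.32 (SE 0.41) in the authors' deposited table. CHMP5 and CSTB had siRNA SE of 2.66 and 3.20 times those usual at their mean counts, like CTSL, and the part of this was not tested.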

How the data were processed

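The data were 14 libraries of 3' mRNA (QuantSeq FWD, single-end reads of 86 cycles, per the labels' protocols). For each arm the authors deposited a DESeq2 comparison, per the file headers, with a mean normalised count, a log2 fold change with SE, a score (the Wald statistic), and raw and adjusted p-values for each gene. The submitters' processing notes name hg19 and edgeR 3.24.3 without a role. The aligner and annotation are not given in the sources used here. Values were read with decimal commas. The depth per library is unknown, so precision is given by the deposited SE.

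Computed here with Python 3.11.15 were group levels implied by mean and fold change, 95% intervals (normal, for the spread the SE covers), and the difference of the arms over the root of the summed squared SE, two-sided against a normal, with Benjamini-Hochberg adjustment over 10891 genes. Where an implied level was at or under 3 counts, no fold is given. GC content and 3' UTRs came from GENCODE release 29 (GRCh38), matched by gene ID for all 87 genes, and a lowess trend (span 0.3, statsmodels 0.14.6) was removed as an alternative. Other alternatives were a Student t reference, the robust SD, a mean count of at least 10, the genes in both tables only and the table's median subtracted. The steps were tested on simulated data. Named were CALCRL, every gene called in an arm or in the difference, the 2 genes of the highest siRNA mean in each role, and of the other pathway genes those called, at most 10 per arm, of which 1 is not reported here. Any other gene named was picked with its values in view. The genes, lists and words were chosen with earlier results of these data known.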

Additional observations from a re-analysis of the deposited data

Results flagged for a closer look

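The effects of the siRNA and of the enhancer deletion differed by a direct test in 11 of the 84 genes (13.1%). This was near the share of all 10891 genes (13.7%). As the deletion's log2 fold change minus that of the siRNA, the differences were 2.06 for VPS9D1-AS1, 1.44 for ATG2A, 1.43 for VPS18, 1.27 for VPS28, 1.20 for VPS4A and 1.10 for ATG4B. They were -2.14 for CTSL, -2.00 for VPS11, -1.43 for ATP6V1B2, -1.04 for GABARAPL2 and -0.92 for ATG4A. All but ATG4A were called in the deletion arm, and 0 of the 11 were called in the siRNA arm. Delivery, time and control differed with the arm and cannot be told apart.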

How the results depend on the processing

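No paired analysis was possible because only group comparisons were given, without values per library, and for the same reason leaving out each replicate and the replicate block were not run. With a Student t reference 0 genes were called under the siRNA, 0 after the deletion and 0 in the difference, against 2, 19 and 11 in the authors' DESeq2 test and the test of the difference, with 5, 17 and 11 at an unadjusted p under 0.05. Over all genes the deletion comparison then held 0 calls, and that of the siRNA 5. Dividing the statistics by their robust SD also left 0, 0 and 0, with 7, 5 and 2 at an unadjusted p under 0.05. Over all genes it left 262 calls under the siRNA and 0 after the deletion. With the GC trend removed 1 gene was called under the siRNA and 7 after the deletion, and 8 differed between the arms, 5 of them among the 11. Over all genes 3.32% were then called under the siRNA and 11.7% after the deletion. The direction of the 2, 19 and 11 genes held with the GC trend removed and, in the 2 arms, with the median subtracted. The other alternatives leave the log2 fold change as it is, so they cannot change a direction. A mean count of at least 10, the genes in both tables only (run for the 2 arms) and the median subtracted (likewise) left the counts at 2, 19 and 11. Chosen after seeing the data, an adjusted p under 0.1 gave 3 and 25 calls, where 4.59% and 22.9% of all genes were called. Leaving out genes of high siRNA SE, likewise chosen, removed only CTSL (18 and 10). Group medians that changed sign were, with the GC trend removed, those of LAMP, HOPS and CORVET, V1 and retromer genes under the siRNA, and of sorting, retromer and LC3 and GABARAP genes after the deletion (the last also with a mean count of at least 10). The median of all 87 genes after the deletion also changed sign with the GC trend removed, from 0.12 to -0.04. So did that of the 14 genes with TCACGTG in the promoter, from 0.10 to -0.15.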
